A study of Mus musculus with 6 samples.

Results

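Heat shock proteins and their DnaJ co-chaperones were examined in fully-grown mouse oocytes as 72 genes, out of 19938 genes for which the array annotation names a probe set of that gene alone. Members were chosen by symbol, as genes named Hspa, Hspb, Hspd, Hspe or Hsph, Hsp90, and Dnaja, Dnajb or Dnajc, and each gene was represented by its probe set with the highest mean over all 6 arrays. Of the 72, 27 have Hsp names and 45 have Dnaj names. Expression was measured in 3 oocyte samples from Marf1-mutant females and 3 from wild-type (Marf1+/+) females, 1 sample to an array. The mutants carry on both copies a Marf1 allele induced by ENU, a chemical mutagen, so every cell of the animal carries it and not the oocyte alone. Both groups share a C57BL/6J;C3HeB/FeJ background, an age of 23 days, and priming with 5 IU of the gonadotropin eCG from day 21 for 46 hours. The oocytes were at the germinal-vesicle stage, when transcription is largely silent, and were stripped of their cumulus cells by pipette, and the number of oocytes in a sample was not stated.

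Molecular chaperones bind unfolded stretches of other proteins and help them to fold, to cross membranes or to be degraded. Hsp70 proteins do this in cycles of ATP binding and hydrolysis: a DnaJ protein delivers the client and speeds hydrolysis, and an exchange factor, such as an Hsp110 protein, releases the nucleotide. Hsp90 takes over partly folded clients such as kinases, Hsp60 folds proteins inside a closed chamber in mitochondria, and small heat shock proteins hold unfolded proteins without ATP. In oocytes these proteins are laid down as part of the maternal store, and the heat shock factors, transcription factors that drive many of these genes, are known from mouse knockouts to be needed for normal oocyte function.

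All values are log2 expression made by RMA, with array medians of 4.56 to 4.76 in the mutant and 4.60 to 4.67 in the wild type. Each difference is measured against the rest of its array, and a change in how much RNA an oocyte holds would not show. Marf1 itself read 5.98, 6.40 and 6.16 in the mutant arrays and 9.21, 9.16 and 9.31 in the wild-type arrays, a log2 fold change of -3.05 (SE 0.15, limma adjusted p = 1.0e-04). Correlations between arrays over all 35556 probe sets were 0.970 to 0.985 among mutants and 0.984 to 0.985 among wild types, and mutant replicate 3 was the array with the lowest (0.970 and 0.973 with the other mutants). The 12 oocyte markers read 6.06 or more on every array and none passed the threshold by limma (0 higher and 1 lower at an unadjusted p under 0.05), with a summed level of 14.02 to 14.34 in mutant arrays and 14.24 to 14.39 in wild-type arrays. Of 14 measured cumulus and granulosa markers 2 were higher and 1 lower in the mutant, and their summed level was 10.38 to 10.71 in mutant arrays and 9.36 to 9.56 in wild-type arrays. Without Nr5a2, which read 10.43, 10.12 and 9.96 in mutant arrays and 8.89, 8.72 and 8.53 in wild-type arrays, the sum was 8.0 to 8.38 in mutant and 8.12 to 8.21 in wild-type arrays. Of 7 theca and stroma markers 1 was higher, with sums of 7.35 to 7.61 in mutant and 7.30 to 7.51 in wild-type arrays, and of 7 blood, immune and endothelial markers 1 was lower, with sums of 7.68 to 7.94 in mutant and 8.12 to 8.23 in wild-type arrays. The other granulosa marker that was higher, Kitl, read 5.97, 5.42 and 5.58 in mutant arrays and 3.77, 3.59 and 3.79 in wild-type arrays (log2 fold change 1.94, limma adjusted p = 7.31e-04). Fshr and Amh read at most 4.58 on any array, and Foxl2 4.79 to 5.66 in mutant arrays and 4.98 to 5.26 in wild-type arrays. Of the 14, 6 lay below the mark of dim signal described next in both groups. The part of these markers in the results was not tested, and in such samples fewer cells of a type and less RNA per cell cannot be told apart.

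Most of the 72 chaperone genes were within a modest distance of wild type, and a few stood out, mainly upward. By limma with Benjamini-Hochberg adjustment over all probe sets, at an adjusted p under 0.05, 9 members were higher in the mutant (12.5% of members, against 6.40% of all genes) and 2 were lower (2.78%, against 4.04% of all genes). Together that is 15.3% of members, where 10.4% of all genes passed. At an unadjusted p under 0.05, 15 members were higher and 10 lower (11% and 13.5% of all genes, 24.5% in all). The 2 groups of 3 arrays did not overlap in 33 members (45.8%, against 30.7% of all genes), the mutant above in 16 and below in 17 (12.9% and 17.7% of all genes). Among the 61 members whose mean level was at or above 4.51, a mark of dim signal taken as the 95th percentile of 1190 odorant and vomeronasal receptor genes, 9 were higher and 2 lower, 18% in either direction. Of all genes above that mark 16.2% passed (9.94% higher and 6.29% lower), so the share of changed chaperone genes was close to that of other expressed genes. The median log2 fold change was -0.01 over the members and -0.04 over all genes, with 35 members above 0 and 37 below. After cyclic loess normalization the counts were 12 higher and 1 lower, and after median centring 5 and 0, when Dnajc28, Hspa1a, Hspa4, Hsph1, Dnaja3 and Dnajb11 lost their calls. Both counts moved with single arrays. Leaving out mutant replicate 1, 2 or 3 left 3, 4 or 6 genes higher, and leaving out wild-type replicate 1, 2 or 3 left 3, 4 or 3. None was lower by limma without any 1 array other than mutant replicate 3, without which 2 were. Those 2 were Dnaja3 and Dnajc17, which was not among the 2 lower with all arrays. Dnajb9, Dnajc5 and Hspb1 passed in each of these 6 fits.

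**Figure D1:**
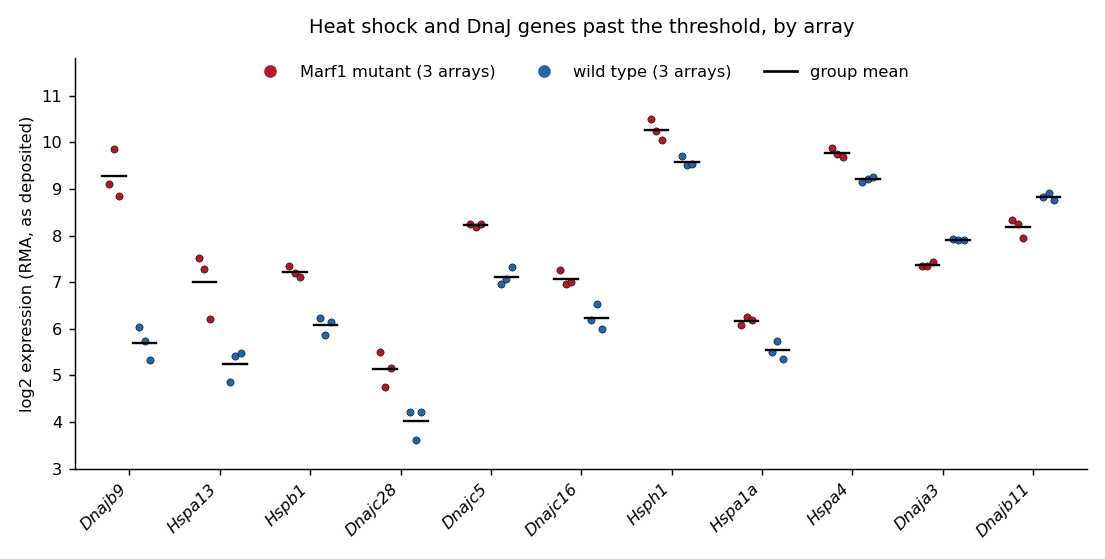
Log2 expression on each array (y axis) of the 11 heat shock and DnaJ genes past the threshold (x axis), with Marf1 mutant arrays in red, wild-type arrays in blue and group means as black bars. In all 11 genes the mutant and wild-type points do not overlap, and Dnajb9 has the widest gap.

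Among the DnaJ genes, Dnajb9 carried the largest change of the 72. It encodes a J protein of the endoplasmic reticulum (ER) that works with the ER Hsp70, Hspa5 (BiP), restrains the stress sensor Ire1 and is known as a target of the unfolded protein response. Dnajb9 read 9.11, 9.85 and 8.85 in the mutant arrays and 6.04, 5.73 and 5.33 in the wild-type arrays, so the lowest mutant value lay far above the highest wild-type value. The log2 fold change was 3.57 (SE 0.29, 11.9-fold higher, adjusted p = 4.51e-04), and the adjusted p stayed between 9.10e-04 and 0.00347 when 1 array was left out.

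The other ER chaperones differed in direction. Hspa5 read 9.19, 9.05 and 9.10 in the mutant and 8.68, 8.86 and 8.77 in the wild type, groups that did not overlap but differed by only 0.34 (SE 0.13, adjusted p = 0.192). Dnajb11, a J protein that binds clients in the ER lumen, fell: it read 8.33, 8.25 and 7.94 in the mutant and 8.83, 8.91 and 8.77 in the wild type (-0.66, SE 0.15, adjusted p = 0.0400). Hspa13, a microsomal Hsp70 relative that lacks the client-binding domain, rose, with 7.52, 7.29 and 6.20 in the mutant and 4.86, 5.41 and 5.49 in the wild type (1.75, SE 0.35, adjusted p = 0.0238). Mutant replicate 3 was the lowest of the Hspa13 mutant values, about 1 unit under the others, and without it the adjusted p was 0.00283. Hsp90b1, the ER form of Hsp90, had a log2 fold change of -0.11 (95% interval -0.48 to 0.25). Dnajc3, a J protein that also inhibits the eIF2 kinases, had -0.33 (adjusted p = 0.221), with mutant values of 9.70 to 9.89 and wild-type values of 10.05 to 10.19. Together with the ER J proteins Dnajc1 (-0.06) and Dnajc10 (-0.26), 2 of these 8 ER genes rose, 1 fell and 5 did not pass. Of all genes 6.40% rose and 4.04% fell, or 9.94% and 6.29% of those above the receptor-gene mark. The grouping by compartment was made after the values were known. It leaves out Dnajb12 and Dnajc16, J proteins of the ER membrane given below, of which Dnajc16 rose.

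Hspa13 lost its call without wild-type replicate 1, 2 or 3 or mutant replicate 1 or 2, and Dnajb11 without any 1 of the 6 arrays. Over the 6 fits the adjusted p lay between 0.00283 and 0.0904 for Hspa13 and between 0.0544 and 0.129 for Dnajb11.

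In the cytosolic Hsp70 and Hsp110 group, the inducible Hsp70, Hspa1a, and 2 of the 3 Hsp110 exchange factors, Hsph1 and Hspa4, were higher in the mutant. Counting Hspa13, 4 of the 13 Hsp70 and Hsp110 genes rose and 0 fell by limma. Of all genes 6.40% rose and 4.04% fell, or 9.94% and 6.29% of those above the receptor-gene mark. At an unadjusted p under 0.05, 6 of the 13 were higher and 0 lower, against 11% and 13.5% of all genes. Hsph1, an Hsp110 exchange factor, read 10.49, 10.25 and 10.04 in the mutant and 9.70, 9.51 and 9.54 in the wild type (0.68, SE 0.16, adjusted p = 0.0443). Hspa4, another Hsp110 protein, read 9.88, 9.75 and 9.69 in the mutant and 9.15, 9.21 and 9.26 in the wild type (0.57, SE 0.13, adjusted p = 0.0406). Hspa1a, the stress-inducible Hsp70, read 6.09, 6.25 and 6.18 in the mutant and 5.51, 5.74 and 5.36 in the wild type (0.64, SE 0.15, adjusted p = 0.0435). All 3 had mutant values wholly above the wild-type values, and all 3 were changes of 1.48-fold to 1.60-fold.

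These 3 calls were close to the threshold. Hspa1a lost its call without any 1 of the 6 arrays (adjusted p 0.0563 to 0.163), and Hspa4 and Hsph1 lost theirs without any 1 array other than mutant replicate 3 (0.0397 to 0.150 and 0.0257 to 0.151 over the 6 fits). Hspa1a has a near-identical copy, Hspa1b, and the probe set that the annotation ties to both genes read 6.20, 6.06 and 6.34 in the mutant and 6.30, 5.97 and 5.97 in the wild type (0.12, SE 0.16, adjusted p = 0.782). The groups overlapped there, so the 2 probe sets that name Hspa1a did not give the same answer. Which copy each one reads was not tested.

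Hspa8, the constitutive cytosolic Hsp70, read 11.31, 11.22 and 10.92 in the mutant and 11.11, 10.85 and 11.02 in the wild type, overlapping groups with a log2 fold change of 0.16 (95% interval -0.21 to 0.53). Hspa4l, an Hsp110 gene known from testis, had -0.15 (-0.47 to 0.17), and Hspa2, the Hsp70 of male germ cells, -0.33 (-0.77 to 0.11). Hspa14, a ribosome-bound Hsp70, had -0.43 (adjusted p = 0.266), with all mutant values below all wild-type values. The 9 members of the group that did not pass lay between -0.43 and 0.47.

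Neither of the 2 Hsp90 genes taken in by the symbol rule showed a difference from wild type beyond its spread. Hsp90aa1, the inducible cytosolic form and a known target of heat shock factor 1 in mouse oocytes, read 11.55, 11.50 and 11.22 in the mutant and 11.51, 11.34 and 11.33 in the wild type. The groups overlapped, and the log2 fold change of 0.03 had a 95% interval of -0.32 to 0.38. Its other 2 probe sets gave 0.04 and 0.02. Hsp90ab1, the constitutive form, has no probe set of its own among the members and was not analysed here.

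The mitochondrial chaperones differed among themselves. Hspa9, the mitochondrial Hsp70, read 10.61, 10.64 and 10.47 in the mutant and 10, 10.12 and 10.20 in the wild type, groups that did not overlap (0.47, SE 0.13, adjusted p = 0.0870). It passed at an adjusted p of 0.0437 after quantile and 0.0386 after cyclic loess normalization. Dnaja3, the J protein partner of Hspa9, fell, with 7.34, 7.34 and 7.43 in the mutant and 7.93, 7.90 and 7.90 in the wild type (-0.54, SE 0.12, adjusted p = 0.0403). The Dnaja3 call ended under these same normalizations, at 0.0508 after quantile and 0.140 after cyclic loess, where the log2 fold change was -0.38. It also ended without any 1 array other than mutant replicate 3 (adjusted p 0.0406 to 0.142). The chaperonin Hspd1 (Hsp60) had a log2 fold change of 0.29 (95% interval -0.02 to 0.60) and its lid Hspe1 (Hsp10) 0.13 (-0.33 to 0.59). With Dnajc11 (-0.28), Dnajc15 (-0.56), Dnajc19 (-0.26) and Dnajc30 (-0.07), which act at mitochondrial membranes or inside the organelle, 1 of these 8 mitochondrial genes fell and 7 did not pass. This grouping too was made after the values were known. It may leave out other members that act in mitochondria, so it does not show that none of those rose. Of all genes 4.04% fell and 6.40% rose, or 6.29% and 9.94% of those above the receptor-gene mark.

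**Figure D2:**
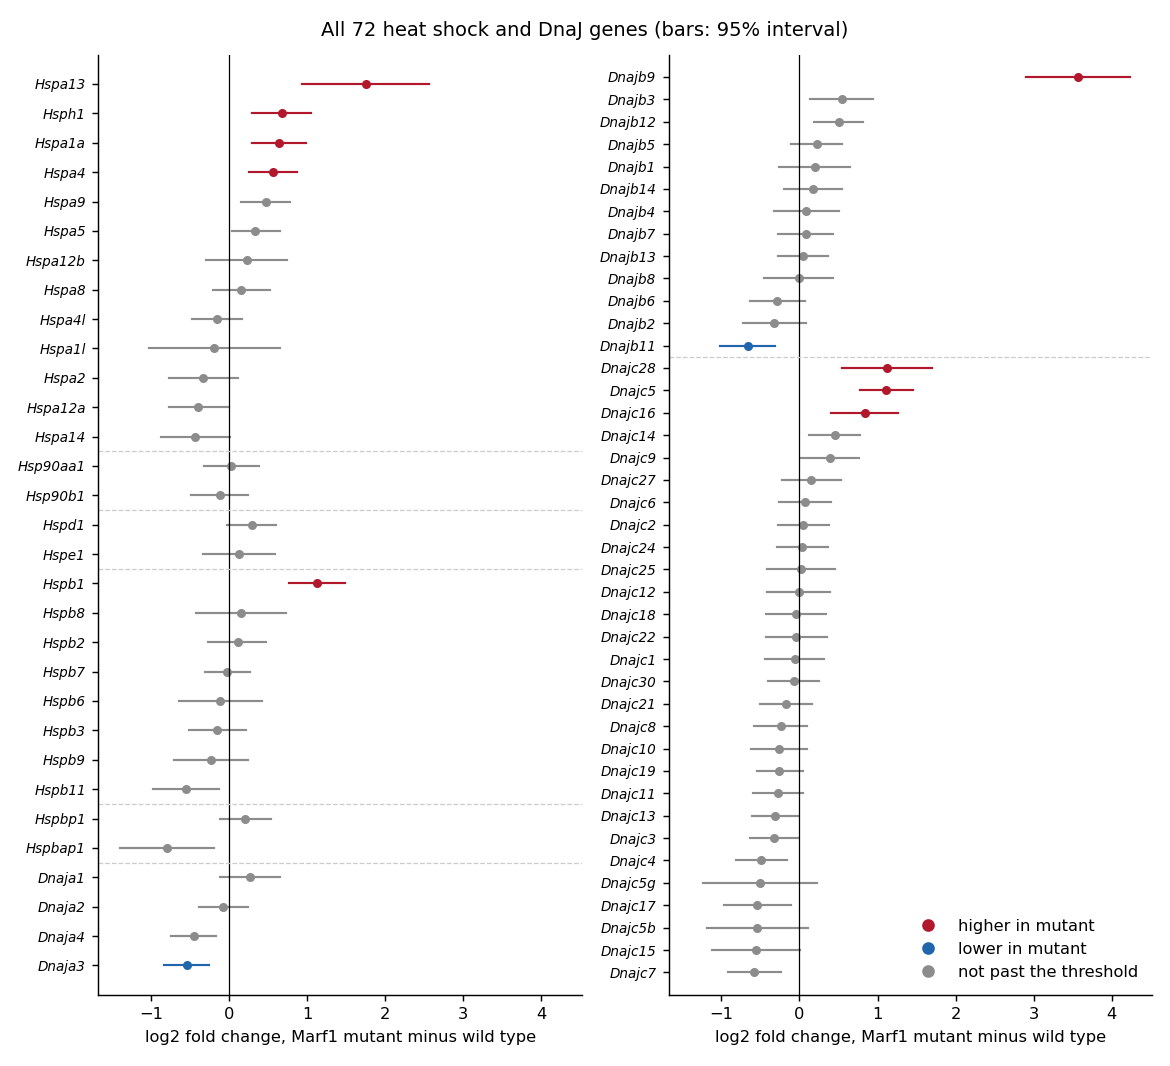
Log2 fold change of each of the 72 genes, Marf1 mutant minus wild type (x axis), with 95% intervals from limma as bars, ordered within each family and with families parted by dashed lines. Genes higher in the mutant are red (9), lower ones blue (2) and those not past the threshold grey (61), and Dnajb9 lies at 3.57.

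Of the 8 small heat shock genes 1 rose and 0 fell by limma, with 1 higher and 1 lower at an unadjusted p under 0.05 (over all genes 6.40% rose and 4.04% fell, and 11% and 13.5% did so unadjusted). Hspb1 (Hsp25 of the mouse), which binds unfolded proteins and actin, read 7.34, 7.19 and 7.10 in the mutant and 6.23, 5.86 and 6.15 in the wild type, with no overlap. The log2 fold change was 1.13 (SE 0.16, 2.19-fold higher, adjusted p = 0.00470), and it passed in every fit that left out 1 array (adjusted p 0.00804 to 0.0247). A second Hspb1 probe set gave 1.28 (adjusted p = 0.0011). The 20 named probe sets nearest to it in ID lie on chromosome 13, while Hspb1 lies on chromosome 5. Which locus this second probe set reads was not tested. Hspb11, which despite its name is a subunit of the intraflagellar transport machinery, read 8.03, 7.92 and 7.64 in the mutant and 8.70, 8.27 and 8.28 in the wild type (-0.55, SE 0.18, adjusted p = 0.125). Hspb6, a small heat shock protein of muscle, had -0.11 (95% interval -0.64 to 0.43), and the 7 members that did not pass lay between -0.55 and 0.16. Of 2 proteins that bind heat shock proteins, the Hsp70 exchange factor Hspbp1 differed by 0.21 on the log2 scale (adjusted p = 0.524) and Hspbap1 -0.79 (adjusted p = 0.125). Hspbap1 was low on mutant replicate 3, at 5.18 against 6.05 and 6.12 on the other mutant arrays, and read 6.45 to 6.72 in the wild type.

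Of the 28 DnajC genes 3 rose and 0 fell by limma, with 5 higher and 5 lower at an unadjusted p under 0.05. The 10.7% that rose compares with 6.40% of all genes and 9.94% of those above the receptor-gene mark, and the unadjusted shares over all genes are 11% and 13.5%. Dnajc5, the cysteine string protein, which keeps SNARE proteins folded on secretory vesicles, read 8.24, 8.19 and 8.24 in the mutant and 6.95, 7.07 and 7.32 in the wild type. The mutant values were tightly grouped and wholly above the wild-type values (1.11, SE 0.15, 2.16-fold higher, adjusted p = 0.00377), and the call held in every fit that left out 1 array (0.00922 to 0.0219). Its paralogs Dnajc5b and Dnajc5g, known from testis, had log2 fold changes of -0.54 (adjusted p = 0.352) and -0.51 (adjusted p = 0.468), with overlapping groups. Dnajc28 read 5.51, 4.74 and 5.16 in the mutant and 4.21, 3.62 and 4.22 in the wild type (1.12, SE 0.25, adjusted p = 0.0350). Its wild-type mean of 4.02 lay below the receptor-gene mark of 4.51, so this difference may be a lower bound. Dnajc16, a J protein of the ER membrane, read 7.27, 6.95 and 7.0 in the mutant and 6.19, 6.53 and 5.99 in the wild type (0.84, SE 0.18, adjusted p = 0.0327). Dnajc28 kept its call only without mutant replicate 2 and Dnajc16 only without wild-type replicate 2, and the adjusted p over the 6 fits was 0.0311 to 0.0993 for Dnajc28 and 0.0326 to 0.121 for Dnajc16.

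Among all 28 DnajC genes, 9 had all mutant values below all wild-type values (32.1%, against 17.7% of all genes and 25.1% of those above the receptor-gene mark), none of them past the threshold. In 5 they lay above (17.9%, against 12.9% and 17.4%). Dnajc7, a co-chaperone that passes clients between Hsp70 and Hsp90, came closest to the threshold, at 9.65, 9.69 and 9.40 in the mutant and 10.25, 10.18 and 10.05 in the wild type (-0.58, SE 0.15, adjusted p = 0.0540). The spliceosomal Dnajc8 differed by -0.24 on the log2 scale (adjusted p = 0.448) and Dnajc21, of ribosome assembly, -0.17 (adjusted p = 0.616).

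Dnajc13, an endosomal J protein that helps recycle receptors from endosomes, was read by 15 probe sets. All 15 had a negative log2 fold change, between -0.86 and -0.31, and in 11 of them all mutant values lay below all wild-type values. The probe set with the highest mean read 10.45, 10.51 and 10.44 in the mutant and 10.76, 10.86 and 10.72 in the wild type (-0.31, SE 0.13, adjusted p = 0.220), and 1 of the 15 passed the threshold. The mean of the 15 gave -0.57 (adjusted p = 0.0467 over genes). Probe sets of 1 gene share its RNA and are not replicates, and where along the transcript each one lies was not stated.

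**Figure D3:**
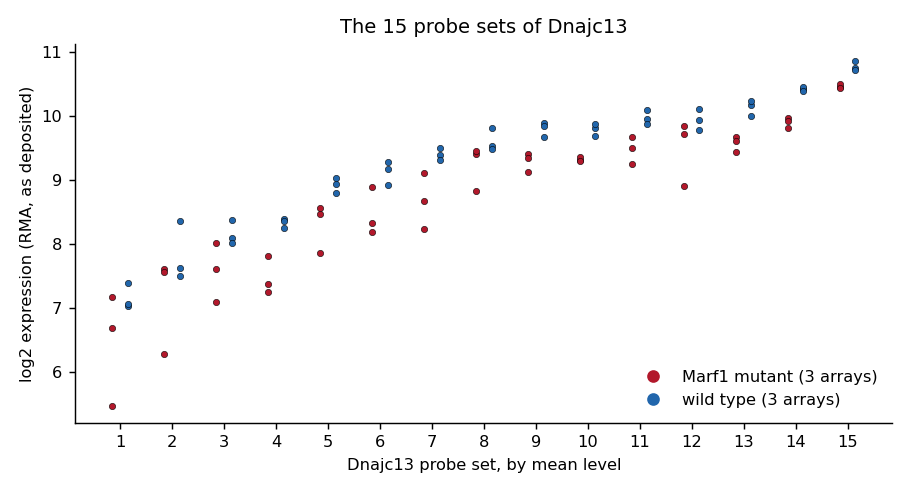
Log2 expression (y axis) of the 15 probe sets of Dnajc13, ordered along the x axis by mean level, with Marf1 mutant arrays in red and wild-type arrays in blue. The mutant mean is below the wild-type mean in all 15, by 0.31 to 0.86.

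The DnajA and DnajB classes hold the main J protein partners of cytosolic Hsp70. Of 4 DnajA genes, by their probe sets of highest mean, 1 fell, the mitochondrial Dnaja3, and 3 did not pass. The share that fell was 4.04% over all genes and 6.29% over those above the receptor-gene mark. Dnaja4 read 7.30, 7.31 and 7.21 in the mutant and 7.72, 7.75 and 7.70 in the wild type, groups that did not overlap (-0.45, SE 0.12, adjusted p = 0.0770). Dnaja2 read 10.03, 10 and 9.79 in the mutant and 10.02, 10.01 and 10 in the wild type (-0.07, 95% interval -0.38 to 0.24). Dnaja1 gave different answers by probe set. The one with the highest mean differed by 0.27 on the log2 scale (adjusted p = 0.472), while a second read 9.50, 9.36 and 9.66 in the mutant and 8.79, 8.92 and 8.93 in the wild type (0.63, SE 0.14, adjusted p = 0.0374). A probe set that the annotation ties to both Mir207 and Dnaja1 read 8.76, 8.60 and 9.15 in the mutant. In the wild type it read 8.77, 8.67 and 8.88, overlapping groups (0.06, SE 0.18, adjusted p = 0.909). The 20 named probe sets nearest in ID to the second one lie mostly on chromosome 4, as Dnaja1 does, and those nearest the first lie mostly on chromosome 5. The probe sets used for Hsp90aa1, Hspa8, Hspd1 and Hspe1 likewise have ID neighbours mostly on a chromosome other than the gene's, and which locus they read was not tested.

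Of 13 DnajB genes 1 rose, Dnajb9, and 1 fell, Dnajb11 (7.69% each way). The shares over all genes were 6.40% and 4.04%, or 9.94% and 6.29% of those above the receptor-gene mark. Dnajb1, the heat-inducible partner of Hsp70, read 8.88, 9.08 and 8.46 in the mutant and 8.64, 8.42 and 8.77 in the wild type, overlapping groups with a log2 fold change of 0.20 (95% interval -0.26 to 0.65). Dnajb4 had 0.09 (-0.33 to 0.51), and Dnajb6, which holds back aggregation, -0.29 (-0.64 to 0.07). Dnajb12, a J protein of the ER membrane, had a difference of 0.50 with mutant values of 5.89 to 6.04 wholly above wild-type values of 5.33 to 5.56, but did not pass (adjusted p = 0.0717). Dnajb3 had 0.54, also with no overlap (adjusted p = 0.119), at means of 4.0 in the mutant and 3.46 in the wild type, below the receptor-gene mark. Dnajb7, Dnajb8 and Dnajb13, known from testis, had group means below the receptor-gene mark in both genotypes.

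The promoters of 3 of the genes that rose, Hspb1, Hsph1 and Hspa1a, are shown because they hold letters of the heat shock element, the sequence bound by heat shock factors, together with that of Hspd1, which holds overlapping copies of them and did not pass. The promoter of Dnajb9 is shown as that of the gene with the largest change. Each run spans 250 bases before to 50 bases after the transcription start (RefSeq, GRCm38.p6), 5′ to 3′ on the gene's strand, with GAANNTTC and TTCNNGAA in capitals. Each of the pair reads the same on both strands, and matches of the pair can overlap, sharing 1 unit, which makes a run of 3 or more units.
Hspb1 (chr5:135887669-135887968, plus strand): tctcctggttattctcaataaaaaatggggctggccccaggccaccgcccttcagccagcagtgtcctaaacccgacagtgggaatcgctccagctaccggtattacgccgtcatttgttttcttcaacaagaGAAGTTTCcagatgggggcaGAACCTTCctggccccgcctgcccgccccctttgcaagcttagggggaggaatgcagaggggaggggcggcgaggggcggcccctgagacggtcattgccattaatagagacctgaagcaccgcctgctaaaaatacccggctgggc
Hsph1 (chr5:149636266-149636565, minus strand): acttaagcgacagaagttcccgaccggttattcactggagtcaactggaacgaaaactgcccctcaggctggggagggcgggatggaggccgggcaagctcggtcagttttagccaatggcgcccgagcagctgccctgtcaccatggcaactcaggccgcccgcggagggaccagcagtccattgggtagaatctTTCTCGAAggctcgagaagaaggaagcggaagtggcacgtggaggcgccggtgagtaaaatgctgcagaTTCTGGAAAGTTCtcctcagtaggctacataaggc
Hspa1a (chr17:34972107-34972406, minus strand): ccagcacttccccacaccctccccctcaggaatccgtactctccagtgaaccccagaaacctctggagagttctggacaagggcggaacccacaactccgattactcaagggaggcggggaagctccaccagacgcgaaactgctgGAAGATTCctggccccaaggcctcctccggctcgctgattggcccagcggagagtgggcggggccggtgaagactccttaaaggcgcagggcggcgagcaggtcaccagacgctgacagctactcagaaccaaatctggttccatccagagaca
Hspd1 (chr1:55087883-55088182, minus strand): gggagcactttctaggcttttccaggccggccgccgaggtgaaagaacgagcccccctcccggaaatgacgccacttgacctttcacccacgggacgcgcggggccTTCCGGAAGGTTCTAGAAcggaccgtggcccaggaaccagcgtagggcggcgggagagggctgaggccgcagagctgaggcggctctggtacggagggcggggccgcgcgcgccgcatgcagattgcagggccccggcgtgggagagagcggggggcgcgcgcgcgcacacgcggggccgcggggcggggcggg
Dnajb9 (chr12:44210019-44210318, minus strand): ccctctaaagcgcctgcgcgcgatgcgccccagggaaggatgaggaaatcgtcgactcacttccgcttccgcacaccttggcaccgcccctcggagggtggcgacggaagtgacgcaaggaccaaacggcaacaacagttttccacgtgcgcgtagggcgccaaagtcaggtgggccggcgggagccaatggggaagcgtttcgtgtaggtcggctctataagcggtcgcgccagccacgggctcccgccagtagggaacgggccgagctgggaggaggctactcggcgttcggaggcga
In Hspb1 the matches begin 117 and 97 bases before the start, in Hspa1a 104 bases before it, and in Hsph1 54 bases before it and again downstream, where 2 matches overlap. Hspd1 holds 3 overlapping matches that begin 144, 139 and 134 bases before its start, and the same letters lie in the window of its divergent neighbour Hspe1. Of 59 members with a promoter in the table, 15 held at least 1 pair (25.4%), against 17% of 27025 genes in the table, and 4 (Dnajb6, Hspd1, Hspe1 and Hsph1) held a run of 3 units (6.78%, against 0.662%). Of the 15 members with a pair 3 rose and 12 did not pass, and of the 44 without one 4 rose, 2 fell and 38 did not pass. The ER stress element, searched for on either strand by a motif chosen after the values were known, was found in the windows of Hspa5, Hsp90b1 and Dnajc3 (5.08% of the 59, against 0.137% of all genes), none of which passed, and not in the window used for Dnajb9.

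Genes that work with these chaperones but carry other names were taken as a list of partners. The list was chosen with earlier results of these data known, so its shares describe it and are not an independent test. Of 62 measured chaperone partners 9 rose (14.5%, against 6.40% of all genes) and 3 fell (4.84%, against 4.04%). At an unadjusted p under 0.05, 15 were higher and 13 lower, where 11% and 13.5% of all genes were. The median log2 fold change of the partners was 0.00. Of the 58 above the receptor-gene mark 15.5% rose and 5.17% fell, against 9.94% and 6.29% of all genes above it. After cyclic loess normalization the counts were 13 and 2, and after median centring 8 and 1. Hyou1 lost its call under both, and Pdia3 and Pdia6 under median centring. Heat shock factor 2 (Hsf2), a transcription factor of gametogenesis and stress, read 8.34, 8.49 and 8.0 in the mutant and 5.82, 5.20 and 5.00 in the wild type, a gap of more than 2 units between the groups. Its log2 fold change was 2.94 (SE 0.24, 7.66-fold higher, adjusted p = 4.66e-04), and it passed in every fit that left out 1 array. Of the other factors measured, Hsf4 had 0.09 and Hsf5 0.13, and heat shock factor 1 was not analysed here.

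Of the 10 exchange factors on the partner list 2 rose and 1, Hyou1, fell, against 6.40% and 4.04% of all genes (9.94% and 6.29% of those above the receptor-gene mark). That count leaves out the members Hsph1 and Hspa4, which rose, and Hspa4l and Hspbp1, which did not pass. Bag5, an exchange factor of cytosolic Hsp70, read 8.89, 8.72 and 8.68 in the mutant and 6.12, 5.75 and 5.37 in the wild type (3.02, SE 0.20, adjusted p = 2.30e-04). Grpel2, an exchange factor of mitochondrial Hsp70, read 7.80, 7.73 and 7.53 in the mutant and 5.65, 5.73 and 4.77 in the wild type (2.30, SE 0.26, adjusted p = 0.00194). Its paralog Grpel1 differed by 0.26 on the log2 scale (adjusted p = 0.358). Tomm70a, the import receptor on which Hsp70 and Hsp90 dock at mitochondria, read 8.52, 8.31 and 8.17 in the mutant and 5.63, 5.73 and 5.42 in the wild type (2.74, SE 0.16, adjusted p = 1.32e-04). Bag5, Grpel2 and Tomm70a passed in every fit that left out 1 array. The other BAG genes did not pass, with log2 fold changes from -0.68 (Bag6) to 0.20 (Bag3). Among the Hsp90 co-chaperones, Ahsa2, related to the Hsp90 activator Ahsa1, rose by 1.1 (SE 0.18, adjusted p = 0.0109) and the immunophilin Fkbp4 by 1.06 (SE 0.18, adjusted p = 0.0124), while Ahsa1 differed by -0.55 (adjusted p = 0.0774). Without wild-type replicate 3 Ahsa2 had an adjusted p of 0.0540, and Fkbp4 lost its call without wild-type replicate 2 or 3 (up to 0.0603).

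**Figure D4:**
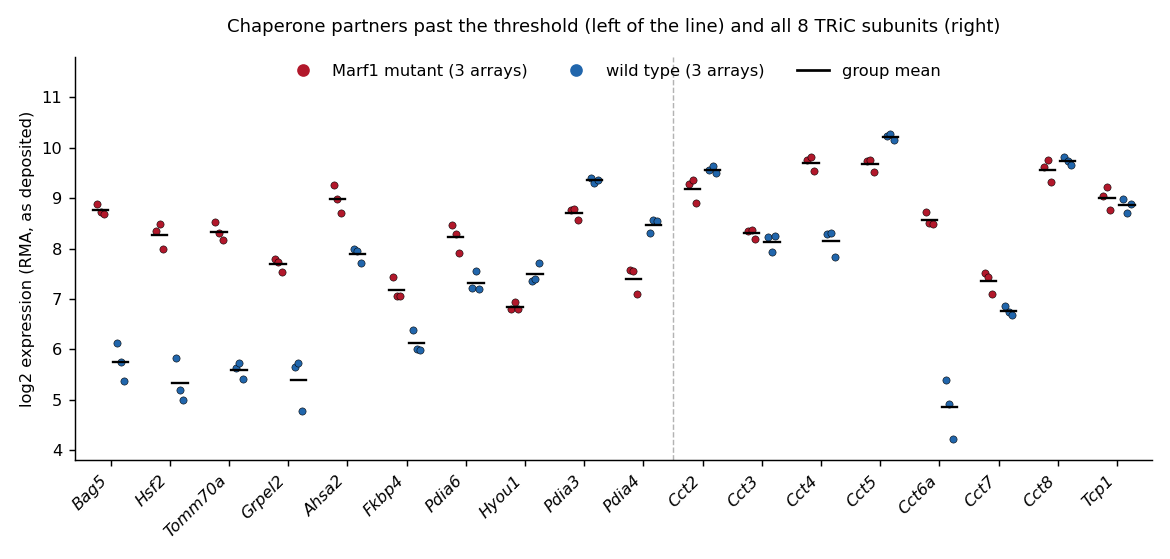
Log2 expression on each array (y axis) of the 10 chaperone partners past the threshold that are not chaperonin subunits and of all 8 measured subunits of the chaperonin TRiC (x axis), with Marf1 mutant arrays in red, wild-type arrays in blue and group means as black bars. Bag5, Hsf2, Tomm70a, Grpel2 and Cct6a show the widest gaps, from 2.30 to 3.73, while Pdia3, Pdia4 and Hyou1 are lower in the mutant.

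Subunits of 1 complex did not move together. TRiC, the cytosolic chaperonin that folds actin and tubulin, is built from 8 different subunits, of which 2 rose and 0 fell by limma (3 and 2 at an unadjusted p under 0.05). Over all genes 6.40% rose and 4.04% fell (11% and 13.5% unadjusted). Of those above the receptor-gene mark 9.94% rose and 6.29% fell. Cct6a read 8.73, 8.51 and 8.48 in the mutant and 5.40, 4.91 and 4.23 in the wild type (3.73, SE 0.28, 13.2-fold higher, adjusted p = 3.29e-04). Cct4 read 9.75, 9.82 and 9.54 in the mutant and 8.29, 8.30 and 7.84 in the wild type (1.56, SE 0.18, adjusted p = 0.00188). Both passed in every fit that left out 1 array. Cct5, at 9.74, 9.76 and 9.52 in the mutant and 10.24, 10.27 and 10.16 in the wild type, differed by -0.55 on the log2 scale (adjusted p = 0.0524), and Cct7 had 0.59 (adjusted p = 0.0712). None of the 6 prefoldin subunits, which hand clients to TRiC, passed by limma (0 higher and 2 lower at an unadjusted p under 0.05).

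The folding enzymes and lectin chaperones of the ER also differed in direction. Of the 6 on the partner list (Canx, Calr, P4hb, Pdia3, Pdia4 and Pdia6) 2 fell and 1 rose. In 5 of the 6 all mutant values lay below all wild-type values. Over all genes 4.04% fell, 6.40% rose and 17.7% lay wholly below, or 25.1% of those above the receptor-gene mark. The ER partners Sil1 (-0.02) and Sec63 (-0.26), with overlapping groups, and Hyou1 are not among the 6. The disulfide isomerase Pdia4 read 7.57, 7.55 and 7.09 in the mutant and 8.31, 8.56 and 8.54 in the wild type (-1.07, SE 0.18, adjusted p = 0.0109). A second Pdia4 probe set, at 2.80, 3.11 and 3.34 in the mutant and 3.27, 2.94 and 2.85 in the wild type, lay below the receptor-gene mark and differed by 0.06, and the mean of both gave -0.50 (adjusted p = 0.0262 over genes). Pdia3, which acts on glycoproteins, changed by -0.65 (adjusted p = 0.0258), and Hyou1, the Hsp110 relative that serves Hspa5 as exchange factor, by -0.64 (adjusted p = 0.0433). Pdia6 moved the other way, with 8.47, 8.28 and 7.92 in the mutant and 7.22, 7.55 and 7.19 in the wild type (0.90, SE 0.19, adjusted p = 0.0279). The lectin chaperones Canx and Calr had -0.33 and -0.30 and did not pass. Pdia4 lost its call without wild-type replicate 3 (adjusted p = 0.0545), Pdia6 without wild-type replicate 1 or 3 or mutant replicate 1 or 2 (up to 0.111), Pdia3 without any 1 array other than mutant replicate 3 (up to 0.102), and Hyou1 without any 1 of the 6 (0.0741 to 0.154).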

How the data were processed

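Per the labels' protocols, oocyte RNA was amplified over the whole transcript, labelled with biotin and put on 1 array a sample. The authors deposited 1 log2 value per probe set and array; per the submitters' processing notes the authors used GCOS, Affymetrix Expression Console 1.1 and RMA. Depth has no meaning for arrays, and the 3 arrays per group limit the precision. Groups and replicate numbers came from the sample titles. The labels do not say whether samples came from different females, so the spread behind each p-value may be technical.

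Gene names came from the platform annotation: 21789 probe sets named 1 gene, 1621 several and 12146 were not named here. All 35556 probe sets were fitted in R 4.3.3 by limma 3.58.1 (eBayes after lmFit, genotype as the only term, two-sided), with Benjamini-Hochberg adjustment over all of them and a threshold of 0.05. The pipeline was tested on simulated arrays. Named are all members past the threshold, the 3 highest and the largest change each way in each family. Named too are a set of textbook members and the partner genes past the threshold. A few others were chosen after their values were seen. They are Dnaja4, Dnajb3, Dnajb12, Dnajc5b, Dnajc5g, Dnajc17, ER and mitochondrial genes, and partners not past the threshold. Members and lists were chosen with earlier results of these data known. Alternatives were other normalizations, a filter on dim probe sets, other rows per gene, other variance priors, array weights, the replicate number as a block, other thresholds and each array left out. Protein sequences were not used here.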

Additional observations from a re-analysis of the deposited data

How the results depend on the processing

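Over 524 values of the 35 named members under the alternatives planned, no called value changed sign, 5 values that had not passed did, 450 kept their side of the threshold, 57 lost a call and 17 gained one. The 9 members higher in the mutant became 5 after median centring or with a 2-fold minimum, 4 with a replicate block, and 3 to 6 without 1 array. The 2 lower became 1 after cyclic loess, 0 after median centring, with a 2-fold minimum or with a replicate block, 0 to 2 without 1 array, 5 among probe sets above the median level, with array weights or at an adjusted p under 0.10, 6 with 1 row per gene and 7 with the mean of a gene's rows. The 3 partners lower became 5 after quantile normalization, among probe sets above the median level, with a trend and robust prior or with array weights, 1 after median centring, with a 2-fold minimum or with a replicate block, 0 to 2 without 1 array, 6 at an adjusted p under 0.10, 8 with 1 row per gene and 9 with the mean of a gene's rows. Fewer features enter the adjustment with 1 row per gene or above the median level; the cause of the other moves was not tested. With the replicate block Dnajb9, Dnajc28, Dnajc5 and Hspb1 remained; no pairing is given by the labels, and the deviations of same-numbered samples from their group means correlated at 0.147, -0.099 and 0.027. Taking the row in the gene's own chromosome neighbourhood, chosen after seeing the data, gave 10 higher and 2 lower. For Marf1 the log2 fold change lay between -3.16 and -2.89 in all settings run. Signal over background was not used here, and nearness to the receptor-gene mark limits what the dim members can show.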

Other observations

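Probe sets that the annotation ties to a chaperone gene and a second gene were left out of the counts. Both of those naming Snord14d, Snord14c and Hspa8 were lower in the mutant. One read 2.93, 3.13 and 3.34 in the mutant arrays and 5.31, 6.85 and 6.17 in the wild-type arrays (log2 fold change -2.98, SE 0.36, limma adjusted p = 0.00243), and the other differed by -3.04 (adjusted p = 0.00256). Snord14 genes are box C/D small nucleolar RNAs carried in introns of Hspa8. The probe set of Hspa8 alone overlapped between the genotypes, with a log2 fold change of 0.16. Of the 2 probe sets naming Dnajb14 and Pin4, 1 was lower in the mutant, at 9.86, 10.10 and 10.02 against 10.64, 10.61 and 10.56 in the wild type (-0.61, adjusted p = 0.0335), and the other differed by -0.51 (adjusted p = 0.0595). The probe set of Dnajb14 alone differed by 0.17 (adjusted p = 0.662). Those naming Gm4247 and Dnajb6 had log2 fold changes from -0.07 to -0.01, with mutant replicate 3 as the lowest array in each.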
